A study of Mus musculus with 21 samples.

Results

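The genes described here are 39 mouse genes of DNA repair and damage signalling, read in the left ventricle of mice in which a Cre recombinase was or was not activated by tamoxifen. They were chosen by name, and each was read from the probe set annotated to that gene alone with the highest mean over all arrays. Such a probe set was found for 38 of the 39, among 19937 genes measured in this way. Xrcc2 is not analysed here. A gene whose mean log2 value over all 21 arrays was under 5 was marked as dim, which applied to 12 of the 38: Chek1, Chek2, Clspn, Brca1, Brca2, Rad51c, Rad51ap1, Rad54l, Exo1, Fancd2, Fanca and Fanci. Next to that limit lay Fen1, with a mean of 5.19, and Fanca, with 4.66. All 26 other members reached 5 on at least 3 arrays, and none of them did so through the arrays of MerCreMer mice given 4 tamoxifen injections alone.

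Expression was measured on 21 arrays, 1 left ventricle sample each, and all mice were 9 to 13 weeks old. The transgene Tg(αMHC-MerCreMer), carried by the MerCreMer mice, places a tamoxifen-inducible Cre under the cardiomyocyte promoter αMHC, while the tissue sampled holds all cell types of the ventricle. Tissue was taken 4 days after the last injection. The groups were MerCreMer mice given tamoxifen (40 mg/kg per day into the peritoneum) for 4 days, and their controls given 4 control injections. The same genotype also received tamoxifen for 1 day, with controls given 1 control injection. Wild-type mice received tamoxifen for 4 days or 4 control injections. Each group held 3 arrays, from 1 male and 2 female mice, except the wild-type controls, which held 6 arrays, from 3 mice of each sex. The labels do not say outright that every replicate was a separate animal, so p-values measure the spread between these samples. The comparisons ask what tamoxifen changed with the Cre transgene, after 1 and 4 injections, and without it.

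Cells sense broken or stalled DNA through the kinases ATM, ATR and DNA-PK, which signal through checkpoint kinases and mediator proteins to halt the cell cycle. Double-strand breaks are rejoined either by end joining, which works through the cell cycle and in cells that no longer divide, or by homologous recombination, which copies the sister chromatid and so belongs to S and G2 phase. The Fanconi anaemia proteins repair crosslinks at replication forks, and excision and mismatch repair remove damaged or mispaired bases. Adult cardiomyocytes rarely divide, and many recombination and replication-fork genes are transcribed mainly in dividing cells, in part through E2F factors. Much damage signalling works by protein modification, which these arrays do not measure.

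Promoter sequences are shown for 5 members that stood high on 1 array of the MerCreMer 4 tamoxifen group, described further on, with and without a match to an E2F-type motif. Windows of 250 bases before to 50 bases after the transcription start were taken from RefSeq (GRCm38.p6), where 33 of the 38 members had one. The letters searched were TTTGGCGC, TTTCGCGC, TTTCCCGC and TTTGCCGC on both strands, and a match is printed in capitals, 5′ to 3′ on the gene's strand. Clspn lies at chr4:126556730-126557029 on the plus strand, Lig1 at chr7:13278576-13278875 plus (the 1 of its 3 windows that holds a match), Topbp1 at chr9:103305077-103305376 plus, Chek1 at chr9:36726609-36726908 minus and Brca1 at chr11:101551906-101552205 minus.
Clspn: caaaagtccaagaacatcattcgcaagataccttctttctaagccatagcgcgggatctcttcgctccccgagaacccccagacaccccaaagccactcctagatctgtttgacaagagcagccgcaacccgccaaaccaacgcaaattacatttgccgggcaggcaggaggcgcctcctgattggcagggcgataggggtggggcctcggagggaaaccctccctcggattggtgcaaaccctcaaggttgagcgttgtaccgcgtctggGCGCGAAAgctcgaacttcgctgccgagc
Lig1: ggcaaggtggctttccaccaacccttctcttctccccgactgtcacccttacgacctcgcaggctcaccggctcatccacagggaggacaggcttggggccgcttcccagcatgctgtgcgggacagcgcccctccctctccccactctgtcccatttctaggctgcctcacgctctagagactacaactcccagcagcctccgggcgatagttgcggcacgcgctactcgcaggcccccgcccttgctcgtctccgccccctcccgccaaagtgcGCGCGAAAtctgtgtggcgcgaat
Topbp1: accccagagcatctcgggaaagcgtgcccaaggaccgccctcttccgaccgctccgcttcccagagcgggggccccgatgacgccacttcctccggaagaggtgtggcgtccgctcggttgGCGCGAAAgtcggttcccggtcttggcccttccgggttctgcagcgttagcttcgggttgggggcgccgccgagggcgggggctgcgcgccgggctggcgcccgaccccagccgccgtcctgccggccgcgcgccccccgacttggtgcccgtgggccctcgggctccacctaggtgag
Chek1: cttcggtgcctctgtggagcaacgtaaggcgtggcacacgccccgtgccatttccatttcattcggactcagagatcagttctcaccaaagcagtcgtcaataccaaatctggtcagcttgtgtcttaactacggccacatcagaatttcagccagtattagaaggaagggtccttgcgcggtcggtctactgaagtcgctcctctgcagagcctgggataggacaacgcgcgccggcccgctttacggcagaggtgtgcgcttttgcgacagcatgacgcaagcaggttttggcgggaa
Brca1: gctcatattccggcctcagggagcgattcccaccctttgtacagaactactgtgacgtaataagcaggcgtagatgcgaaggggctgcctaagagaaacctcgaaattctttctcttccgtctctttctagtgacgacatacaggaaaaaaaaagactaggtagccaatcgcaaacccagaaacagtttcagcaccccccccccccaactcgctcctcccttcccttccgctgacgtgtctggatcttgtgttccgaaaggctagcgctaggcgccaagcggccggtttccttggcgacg

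In Clspn, Lig1 and Topbp1 the match was GCGCGAAA, the reverse complement of TTTCGCGC. The Chek1 and Brca1 windows held none of the 4 motifs, which says only that these letters are not in those windows. The Chek1 window ends in gcgggaa, 1 base short of the reverse complement of TTTCCCGC, and the base after it was not searched. In all, 9 of the 33 members (27.3%) held a match in at least 1 of their windows, against 704 of 27025 genes in the table (2.6%). Among genes on the array with a mean log2 of 5 or more the share was 394 of 8659 (4.55%). The other members with a match were Chek2, Mdc1, Brca2, Rad51c, Xrcc6 and Msh6. None of them was more than 0.5 above the control mean on the array in question, replicate 3 of the MerCreMer 4 tamoxifen group. Rad54l, Fanci, Fen1, Pcna and Fanca were above that limit there and had a window, but held no match. Their sequences are not shown. Matches occurred in 4 of 10 dim members with a window (40%) and in 5 of 23 others (21.7%). The shorter cell cycle motif TTTGAA, searched on both strands, was found in 1 of 33 members (3.03%, Fen1), against 20.2% of all genes. With the most GC-rich window taken for each gene, the median GC content was 60% over the members and 53.3% over all genes. A match to a motif is a description and not a binding site.

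After 4 tamoxifen injections in MerCreMer mice, few repair genes passed the test. Of 38 members, 1 rose (Fanca), none fell and 37 did not pass the test (limma, Benjamini-Hochberg adjusted p under 0.05 over all 19937 genes). The same test called 11.3% of all genes, with 6.9% higher and 4.36% lower. At an unadjusted p under 0.05 the count was 11 of 38 members, against 5034 of all genes. The log2 changes of the members ran between -0.33 (Ung) and 0.73 (Chek1) with a median of 0.11, and the median of all genes was -0.01. The changes were positive in 28 members and negative in 10. The number called was 5 without tamoxifen replicate 1 (Fanca, Chek1, Clspn, Brca1 and Fancd2) and 8 without tamoxifen replicate 2 (the same 5 with Timeless, Fanci and Lig1). It was 1 without tamoxifen replicate 3 (Prkdc), 2 without control replicate 2 (Rad51c and Ung) and 0 without control replicate 3. Over all 19937 genes the same fits called 3008 and 3738 without tamoxifen replicates 1 and 2. They called 1505 without tamoxifen replicate 3, and 1486 and 1267 without control replicates 2 and 3.

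The 12 dim members had positive changes without exception, with a median of 0.35, and the 26 others split into 16 positive and 10 negative with a median of 0.03. Over all genes 9640 changes were positive and 10297 negative. Without tamoxifen replicate 3, Brca2 (-0.02) and Fanci (-5.1e-05) had negative changes and the other dim members positive ones. In bulk tissue, fewer cells of a type and less RNA per cell cannot be told apart, here and in each comparison that follows. Groups that did not overlap at all were found for 5 higher members (Chek1, Clspn, Topbp1, Fancd2 and Rad51c) and 1 lower member (Ung). Among all genes 11.5% lay higher and 8.97% lower without overlap.

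**Figure D1:**
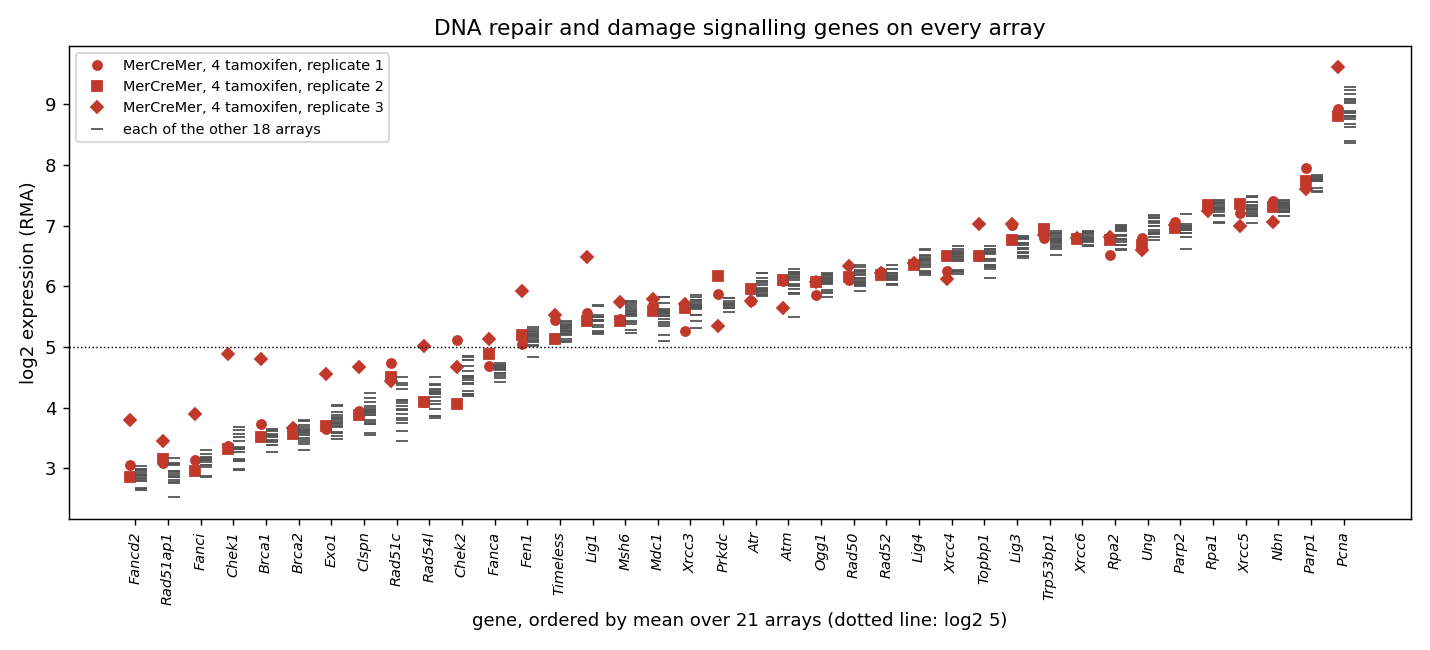
Deposited log2 expression (vertical axis) of the 38 members (horizontal axis, ordered by their mean over all arrays) on all 21 arrays, with the MerCreMer 4 tamoxifen replicates as red symbols, the other 18 arrays as grey dashes and the limit of log2 5 as a dotted line. Replicate 3 of the MerCreMer 4 tamoxifen group stood above all other arrays in 15 members, and most other red symbols lay among the grey dashes.

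None of the apical kinases and break sensors passed the test. Atm, the kinase that responds to double-strand breaks, read 6.09, 6.11 and 5.64 after 4 tamoxifen injections in MerCreMer mice, against 6.01, 6.19 and 6.16 in their controls. Atr, which responds to single-stranded DNA at stalled forks, read 5.75, 5.95 and 5.76 against 5.89, 6.22 and 5.92. The groups overlapped for both kinases, and the log2 changes were -0.17 (SE 0.14, adjusted p = 0.496, limma) for Atm and -0.19 (SE 0.10, adjusted p = 0.284) for Atr. Rad50 and Nbn, subunits of the complex that binds broken ends, had log2 changes of 0.04 (adjusted p = 0.813) and 0.02 (adjusted p = 0.922). A second probe set of Nbn read 5.329, 5.834 and 5.933 against 5.927, 5.495 and 5.879 in the controls, a change of -0.07 (SE 0.15). Mdc1 and Trp53bp1, which gather on chromatin beside breaks, had changes of 0.15 (adjusted p = 0.598) and 0.09 (adjusted p = 0.598).

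Checkpoint genes that act at replication forks had larger changes, none past the threshold. Chek1, the kinase downstream of ATR, read 3.38, 3.32 and 4.88 in MerCreMer mice given 4 tamoxifen injections, against 2.97, 3.32 and 3.12 in their controls. Clspn, whose protein claspin couples ATR to CHK1, read 3.94, 3.88 and 4.68 against 3.77, 3.55 and 3.79. Topbp1, an activator of ATR, read 6.50, 6.50 and 7.03 against 6.36, 6.46 and 6.33. In each of these genes the third replicate was far above the other tamoxifen arrays, which lay just above the controls. The log2 changes were 0.73 (SE 0.25, adjusted p = 0.0736) for Chek1, 0.46 (SE 0.16, adjusted p = 0.0736) for Clspn and 0.30 (SE 0.13, adjusted p = 0.158) for Topbp1. Timeless, part of the fork protection complex, had a log2 change of 0.22 (adjusted p = 0.112), and the checkpoint kinase Chek2, downstream of ATM, one of 0.13 (adjusted p = 0.757).

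None of the 10 homologous recombination genes passed the test, and their changes ran between -0.18 (Rpa2) and 0.58 (Brca1). Brca1, which promotes resection of broken ends, read 3.74, 3.51 and 4.80 in MerCreMer mice given 4 tamoxifen injections, against 3.26, 3.38 and 3.65 in their controls, a change of 0.58 (SE 0.20, adjusted p = 0.0601). Exo1, a resection nuclease, had a log2 change of 0.34 (adjusted p = 0.217) and Rad54l, a motor protein of strand invasion, one of 0.37 (adjusted p = 0.243). In all 3 genes the third tamoxifen replicate was highest, and in Exo1 and Rad54l the other tamoxifen arrays lay within the range of the controls.

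Rad51c, which acts in homologous recombination, had another pattern. It read 4.74, 4.51 and 4.45 in MerCreMer mice given 4 tamoxifen injections, against 3.75, 4.38 and 3.89 in their controls. Here the third replicate was the lowest of the tamoxifen arrays, and the lowest tamoxifen array lay just above the highest control. The change was 0.56 (SE 0.21) and did not pass the test (adjusted p = 0.0885). Brca2, a mediator of homologous recombination, had a log2 change of 0.01 (adjusted p = 0.968), and Rad51ap1, an accessory protein of the same pathway, one of 0.20 (adjusted p = 0.287). Rad52, Xrcc3 and the single-strand binding subunits Rpa1 and Rpa2 had log2 changes of -0.01, -0.08, 0.00 and -0.18, with adjusted p-values of 0.265 or more.

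None of the 5 end joining genes passed the test, and their changes ran between -0.17 and 0.12. The Ku subunits, which bind and hold broken ends, had log2 changes of 0.06 (Xrcc6, 95% interval -0.10 to 0.22) and -0.04 (Xrcc5, -0.23 to 0.15). Xrcc4 and Lig4, the ligation complex, had log2 changes of -0.17 (adjusted p = 0.348) and 0.12 (adjusted p = 0.428). Prkdc, the catalytic subunit of DNA-PK, read 5.88, 6.17 and 5.35 in MerCreMer mice given 4 tamoxifen injections, against 5.73, 5.72 and 5.65 in their controls. Its tamoxifen arrays lay on both sides of the controls, with the third replicate lowest of all 21 arrays. The change was 0.11 (adjusted p = 0.684), and without the third replicate it was 0.33 and passed the test (adjusted p = 0.025).

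Fanca, a subunit of the Fanconi core complex, was the member that passed the test. It read 4.69, 4.88 and 5.14 in MerCreMer mice given 4 tamoxifen injections, against 4.70, 4.50 and 4.57 in their controls. The lowest tamoxifen array lay within the range of the controls and the other 2 above it. The means were 4.90 ± 0.22 and 4.59 ± 0.10 (SD, n = 3 each), and the change was 0.31 (SE 0.10, adjusted p = 0.0428). Fanca is dim, and the call was lost when only the 6 arrays compared were fitted (adjusted p = 0.496) or when replicate 3 of the tamoxifen arrays was left out (adjusted p = 0.214). Leaving out replicate 2 or 3 of the controls also ended it (adjusted p = 0.146 and 0.115).

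Fancd2, which is ubiquitinated by the core complex together with its partner FANCI, read 3.06, 2.86 and 3.80 in MerCreMer mice given 4 tamoxifen injections, against 2.79, 2.84 and 2.65 in their controls. Fanci read 3.13, 2.95 and 3.89 against 2.86, 3.18 and 3.10. The third tamoxifen replicate stood above all other arrays in both. The changes were 0.48 (adjusted p = 0.0741) for Fancd2 and 0.28 (adjusted p = 0.295) for Fanci.

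Among excision and mismatch repair genes none passed the test, and Lig1 and Fen1, which also work in DNA replication, had the largest positive changes. Lig1, which joins Okazaki fragments, read 5.56, 5.42 and 6.49 in MerCreMer mice given 4 tamoxifen injections, against 5.23, 5.44 and 5.44 in their controls, a change of 0.45 (adjusted p = 0.1). Fen1, the flap nuclease, read 5.05, 5.20 and 5.93 against 5.09, 5.03 and 5.18, a change of 0.29 (adjusted p = 0.254). Pcna, the sliding clamp, had a log2 change of 0.12 (adjusted p = 0.78), and its second probe set one of 0.34 (adjusted p = 0.0922). In Lig1 and Fen1 the third replicate again stood apart, and the other tamoxifen arrays were near the controls.

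Ung, the uracil DNA glycosylase, was the member with the largest negative change. It read 6.81, 6.69 and 6.60 in MerCreMer mice given 4 tamoxifen injections, against 7.14, 6.82 and 7.13 in their controls. All tamoxifen arrays lay below all controls, by 0.33 on average (SE 0.11, adjusted p = 0.0656). When dim genes were left out of the test, the same change passed (adjusted p = 0.038 with genes at log2 5 or more on at least 3 arrays). Ogg1 (8-oxoguanine glycosylase), Msh6 (mismatch recognition), Parp1 and Parp2 (poly-ADP-ribose polymerases that sense strand breaks) had log2 changes of -0.02, -0.08, 0.01 and 0.04. Lig3, the ligase of single-strand break repair, had a log2 change of 0.23 (adjusted p = 0.179).

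The size of change that these arrays leave room for can be read from the 95% intervals. For 37 of 38 members the interval after 4 injections in MerCreMer mice lay within a log2 change of 1 in either direction, and Chek1 was the exception with an upper bound of 1.26. For the 26 members at log2 5 or more, all intervals lay between -0.57 (Ung) and 0.81 (Lig1). These intervals use a spread shared by all 6 groups, and the residual variance of the MerCreMer 4 tamoxifen group was 0.0976 against 0.0184 to 0.0291 in the others. With only the 6 arrays compared, 25 of the 26 intervals lay within 1, and the upper bound for Lig1 was 1.08. Among the dim members that fit gave upper bounds over 1 for Chek1 (1.63), Brca1 (1.335), Fancd2 (1.06), Rad51c (1.02), Rad54l (1.02) and Clspn (1.01).

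**Figure D2:**
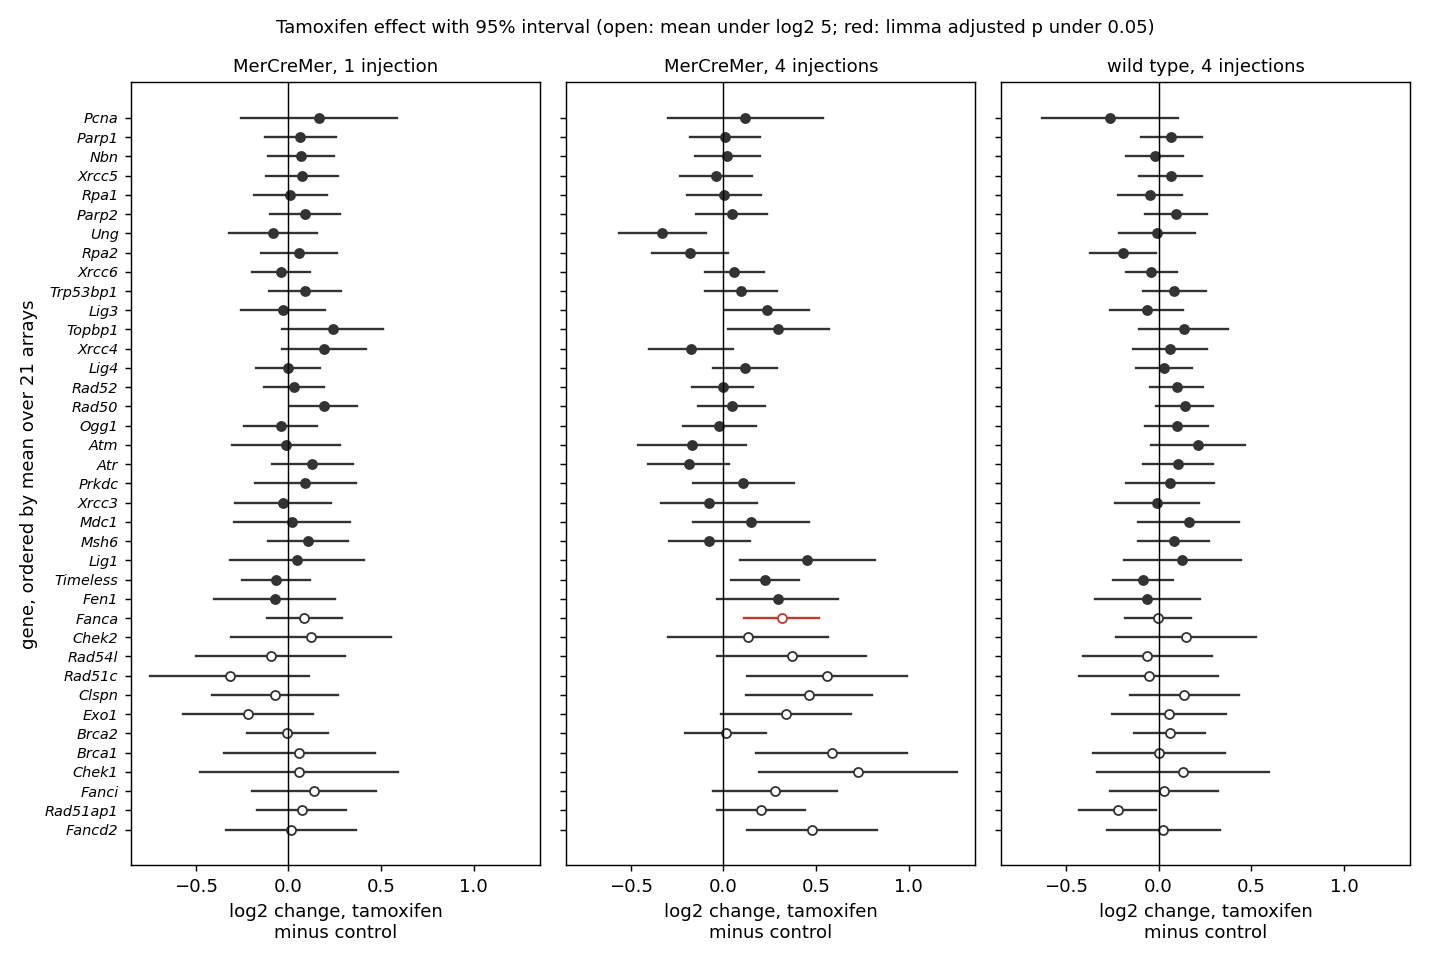
Log2 change, tamoxifen minus control (horizontal axis), with 95% intervals from limma for the 38 members (vertical axis) after 1 injection in MerCreMer mice, 4 injections in MerCreMer mice and 4 injections in wild-type mice (panels). Open symbols are members with a mean under log2 5 and red marks an adjusted p under 0.05, which only Fanca after 4 injections in MerCreMer mice reached.

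The third replicate of the MerCreMer 4 tamoxifen group carried most of the larger values. On that array 12 of 38 members (31.6%) were more than 0.5 above the mean of the controls, against 11.6% of all genes. On the first replicate the count was 2 (Chek2 and Rad51c, 5.26% against 5.91% of all genes) and on the second it was 1 (Rad51c, 2.63% against 2.59%). The 12 were Chek1 (1.75 above the control mean), Brca1 (1.36), Lig1 (1.12), Fancd2 (1.03), Rad54l (0.97), Clspn (0.97), Exo1 (0.92), Fanci (0.84), Fen1 (0.83), Topbp1 (0.65), Pcna (0.62) and Fanca (0.55). No member was more than 0.5 below the control mean on any of these arrays. Of the 21 arrays, this replicate was the highest for 15 members, the 12 above with Timeless, Rad51ap1 and Lig3, and the lowest for 5 (Nbn, Prkdc, Xrcc4, Xrcc5 and Ung). For all genes those shares were 17.7% and 18.9%.

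Lists of markers of other processes and cell types differed in how far they shifted on these arrays. The list of 31 replication and cell cycle genes had a median shift from the controls of 0.17, 0.13 and 1.58 on tamoxifen replicates 1, 2 and 3, and the dim repair genes of 0.17, 0.09 and 0.88. The 26 brighter members shifted by 0.01, 0.04 and 0.06. Mki67, the proliferation marker, read 5.19, 4.86 and 7.29 in MerCreMer mice given 4 tamoxifen injections, against 4.51, 4.30 and 3.88 in their controls. The 16 macrophage markers had median shifts of 0.86, 0.33 and 1.85, and 14 of the 16 rose in the comparison (Cd68 by 1.62), or 9 of 16 without replicate 3. Of the 31 replication and cell cycle genes 6 rose, none fell and 25 did not pass the test, and 3 rose without replicate 3. That count was 18 and 23 without tamoxifen replicates 1 and 2, and 3 and 2 without control replicates 2 and 3. For macrophage markers it was 9 or 10 without any 1 of the controls. Their mean level was 6.42 to 8.03 in MerCreMer mice given 4 tamoxifen injections, against 6.03 to 6.09 in the controls. Cardiomyocyte markers were bright in all groups and had median shifts of -0.06, 0.04 and -0.26, with 3 of 12 called lower. Their mean level was 11.62 to 12.08 in MerCreMer mice given 4 tamoxifen injections, against 12.18 to 12.19 in the controls. Endothelial markers had median shifts of 0.06, -0.32 and -0.61, with 2 of 9 called lower. The 9 fibroblast markers had a mean level of 8.33 to 9.42 in MerCreMer mice given 4 tamoxifen injections, against 8.16 to 8.30 in the controls, with none called. Among them the collagen gene Col1a1 read 9.33, 9.19 and 11.20, against 9.03, 9.02 and 8.95, and the matrix gene Postn read 7.59, 7.65 and 11.14, against 7.16, 6.93 and 7.34. Both were picked after their values were seen, and in both the third tamoxifen replicate was the highest array. Over all 9 fibroblast markers the median shifts were -0.02, 0.13 and 0.22, with 6 positive and 3 negative changes. The 7 smooth muscle and pericyte markers had a mean level of 7.25 to 8.04 against 7.27 to 7.36, with 1 called higher. Their median shifts were 0.25, -0.15 and 0.05. Median shifts were -0.19, 0.08 and 0.07 for 5 T cell markers and -0.03, 0.15 and -0.01 for 4 B cell markers. For 6 neutrophil markers they were -0.22, 0.05 and 0.36, and no gene of these last 3 lists was called. The part of all these cell types and of cell division in the repair gene values was not tested. Without replicate 3 the median change of the members was 0.06, and Prkdc was the only member called.

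**Figure D3:**
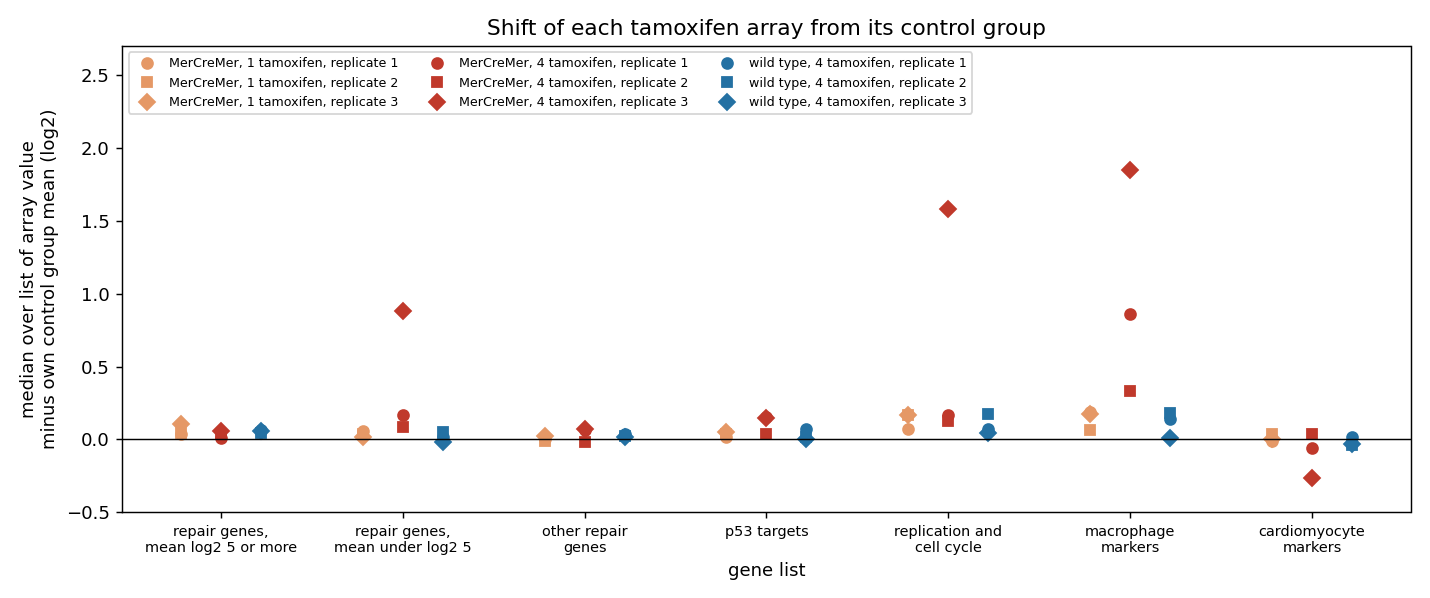
Median over each gene list (horizontal axis) of the array value minus the mean of its own control group (vertical axis, log2), for each tamoxifen array of MerCreMer mice after 1 injection (orange) and 4 injections (red) and of wild-type mice after 4 injections (blue). Replicate 3 of the MerCreMer 4 tamoxifen group reached 0.88 for the dim repair genes, 1.58 for replication and cell cycle genes and 1.85 for macrophage markers, while the brighter repair genes stayed at 0.06.

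Other repair genes were counted in the same way. Of 87 further genes of the repair pathways on the array, 2 rose, none fell and 85 did not pass the test after 4 tamoxifen injections in MerCreMer mice. Their median change was 0.03, and 16 had an unadjusted p under 0.05. Over all genes 6.9% were called higher and 4.36% lower, and 5034 of 19937 had an unadjusted p under 0.05. Rad17, which loads a checkpoint clamp onto damaged DNA, read 7.51, 7.35 and 7.22 against 6.81, 7.05 and 6.87 in the controls. Ercc5, a nuclease of nucleotide excision repair, read 7.25, 6.94 and 6.91 against 6.77, 6.77 and 6.76. In both genes every tamoxifen array lay above every control and the third replicate was the lowest tamoxifen array. The changes were 0.45 (SE 0.10, adjusted p = 0.00646) for Rad17 and 0.27 (SE 0.09, adjusted p = 0.0493) for Ercc5. Without control replicate 1 neither passed (adjusted p = 0.0545 and 0.152), and Ercc5 was also lost without tamoxifen replicate 1 or control replicate 2 or 3 (adjusted p = 0.201, 0.0899 and 0.107). The count over the 87 genes was 6 without tamoxifen replicate 1, 16 without tamoxifen replicate 2 and 0 or 1 without a control replicate. Over all 19937 genes those fits called 3008, 3738 and 1267 to 1486.

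Of 26 p53 target genes on the array, 7 rose, 2 fell and 17 did not pass the test, with a median change of 0.10. The same test called 6.9% of all genes higher and 4.36% lower. Mdm2, the ubiquitin ligase that p53 induces and that limits it, read 7.74, 7.58 and 7.57 in MerCreMer mice given 4 tamoxifen injections, against 7.28, 7.33 and 7.26 in their controls, a rise of 0.34 (SE 0.08, adjusted p = 0.00869). Btg2 and Gadd45g, growth-arrest genes that also answer to other signals, rose by 1.20 (adjusted p = 0.00285) and 1.59 (adjusted p = 0.00513). Perp, a desmosome and cell death protein, fell by 0.69 (adjusted p = 0.000354) and Sesn1, a sestrin, fell by 0.90 (adjusted p = 0.0243). Ccng1 had a log2 change of -0.14 (adjusted p = 0.447) and Gadd45a one of -0.75 (adjusted p = 0.0618). The called genes lay in both directions. Leaving out tamoxifen replicate 3 gave 3 higher and 1 lower, with Mdm2 still called (adjusted p = 0.0122) and Sesn1 not (adjusted p = 0.0698). Leaving out tamoxifen replicate 1 gave 4 higher and 5 lower, and leaving out tamoxifen replicate 2 gave 8 higher and 3 lower. Leaving out any 1 control replicate gave 3 or 4 higher and 1 or 2 lower, and Sesn1 was lost without control replicate 1 or 3 (adjusted p = 0.0669 and 0.102). The list's other called genes, Phlda3, Zmat3, Plk2 and Sesn2, were all higher, while Trp53, Cdkn1a and Bax are not analysed here.

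A single tamoxifen injection in MerCreMer mice left the members without a call, and 0.01% of all genes were called. At an unadjusted p under 0.05 there were 1 member and 940 of the 19937 genes. The member was Rad50, which read 6.09, 6.21 and 6.35 after 1 tamoxifen injection, against 6.03, 6.04 and 6.01 after 1 control injection (change 0.19, adjusted p = 1, limma). The members' changes ran between -0.32 (Rad51c) and 0.24 (Topbp1) with a median of 0.05. Groups did not overlap for 3 higher members (Atr, Rad50 and Topbp1) and 2 lower ones (Fen1 and Exo1), against 5.02% and 5.03% of all genes. All 38 intervals lay within a log2 change of 1.

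In wild-type mice, 4 tamoxifen injections called no member, and 0% of all genes passed the limma test. At an unadjusted p under 0.05 there were 2 members, Rpa2 at -0.19 and Rad51ap1 at -0.22, and 515 of the 19937 genes. The changes ran between -0.26 (Pcna) and 0.21 (Atm) with a median of 0.06, no member had groups without overlap (1.31% of all genes higher and 1.64% lower), and all 38 intervals lay within 1. Chek1 read 3.26, 3.57 and 3.68 in wild-type mice given tamoxifen, against a lowest, median and highest value of 2.97, 3.34 and 3.64 in wild-type controls.

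The difference of the tamoxifen effect between genotypes was tested directly. No member passed (limma), against 3.16% of all genes, and 7 members had an unadjusted p under 0.05, as did 3280 of the 19937 genes. The lowest adjusted p was 0.147, for Rad51ap1, whose effect was higher in MerCreMer than in wild-type mice by 0.42 (SE 0.15). Rad51c differed by 0.61 (adjusted p = 0.264), Brca1 by 0.58 (adjusted p = 0.261), Fanca by 0.32 (adjusted p = 0.212) and Ung by -0.32 (adjusted p = 0.287). The rise of Fanca in MerCreMer mice was therefore not shown to differ from its effect in wild-type mice. Without MerCreMer 4 tamoxifen replicate 1 this test called Fanca (adjusted p = 0.0366), and without replicate 2 it called Timeless and Brca1 (adjusted p = 0.00595 and 0.0154). The same fits called 1201 and 1828 of the 19937 genes.

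The effect of 4 injections minus that of 1 injection in MerCreMer mice called no member either, against 2.06% of all genes, with 6 members at an unadjusted p under 0.05, as were 3244 of the 19937 genes. Rad51c had the largest difference, 0.88 (SE 0.29, adjusted p = 0.13). It read 3.45, 3.97 and 3.96 after 1 tamoxifen injection, against 4.40, 3.84 and 4.08 in the controls given 1 injection, and its change was -0.32 after 1 injection and 0.56 after 4. Exo1 (0.56), Clspn (0.54) and Timeless (0.29) had positive differences, and Xrcc4 (-0.36) and Atr (-0.32) negative ones. Without MerCreMer 4 tamoxifen replicate 2, Timeless and Brca1 passed (adjusted p = 0.0138 and 0.0356). That fit called 1546 of the 19937 genes.

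Between MerCreMer and wild-type mice, both after 4 control injections, no member passed the test, against 0.316% of all genes, and 2 had an unadjusted p under 0.05, as did 3057 of the 19937 genes. Lig4 read 6.36, 6.22 and 6.19 in MerCreMer controls, against a lowest, median and highest value of 6.40, 6.48 and 6.59 in wild-type controls (change -0.22, SE 0.07, adjusted p = 0.155). Timeless read 5.09, 5.21 and 5.14 against 5.27, 5.37 and 5.43 (change -0.23, SE 0.08, adjusted p = 0.164). Both were lower in every MerCreMer control than in every wild-type control, as were 5.28% of all genes. With arrays weighted by their quality both passed (adjusted p = 0.0457 for Lig4 and 0.0365 for Timeless). That fit called 785 of the 19937 genes.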

How the data were processed

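Total RNA of 21 left ventricle samples was hybridised to Affymetrix gene arrays, 1 sample per array. The deposited values are log2 expression made by the authors with RMA, per the submitters' processing notes; the software version is not given in the sources used here. RMA corrects background, quantile normalises and summarises probes, so a change common to most genes would not be seen. Array medians were 4.57 to 4.72. No further scaling was done. Of 34760 probe sets, 21640 named 1 gene, 1321 several and 11799 none in the platform's annotation table. Only the first kind was used, keeping the highest mean probe set of each of 19937 genes. Probe set levels were not compared between genes. Precision is limited by the number of arrays.

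All 21 arrays entered 1 fit of 6 group means plus sex, made in limma 3.58.1 (R 4.3.3; lmFit, then eBayes). Residual degrees of freedom were 14 and prior ones 4.85. No filter on low values was applied, so that every member was tested. Benjamini-Hochberg adjustment ran over all genes, with calls at an adjusted p under 0.05. Intervals are 95% intervals from the same fit. The members and gene lists were chosen with earlier results of these data known, so their directions are no independent evidence. Named genes were all members, up to 4 called genes of each other list with the smallest adjusted p, and a short panel; Ccng1, Gadd45a, Mdm2, Mki67 and Cd68 come from that panel. The other called p53 targets are named beyond that rule to complete the count. The fit was also run on simulated data with noise drawn independently for each gene and array. Those data hold no array that stands apart, as MerCreMer 4 tamoxifen replicate 3 did, so no result rests on them.

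Deviations of same-numbered replicates correlated at -0.20 to 0.20 (45 pairs, median 0.06, 14 over 0.1), against a median of -0.02 and 27 of 135 pairs over 0.1 for different numbers. Since not every pair was over 0.1, a strict rule, the numbers were not taken to pair samples. These correlations cannot settle pairing, because deviations were taken from group means without a sex term and replicate 1 was male in every group. Alternatives were no sex term, a replicate block, the compared arrays alone, 2 filters on low values, group variance weights, array weights, female arrays, a second quantile normalisation, the mean over probe sets and leaving out each replicate. A batch inferred from a control probe set was added after seeing the data. Promoter motifs were counted as a description with no test.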

Additional observations from a re-analysis of the deposited data

Results flagged for a closer look

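Within-group spread was checked for each of the 38 members in the 6 wild-type control arrays, the only group large enough, by the gap of the highest or lowest array to its nearest neighbour as a share of the group's range (limit 0.625). Such gaps were found in 3 of the 38 groups checked, and chance alone gives about 5% of groups. Prkdc read 5.81 on 1 wild-type control array and 5.64 to 5.68 on the other 5. Xrcc4 read 6.25 on its lowest array and 6.48 to 6.55 on the others. Fanci read 3.03 on its lowest array and 3.13 to 3.19 on the others. None of these 3 genes was called between wild-type groups.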

How the results depend on the processing

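After 4 injections in MerCreMer mice the count of members called, 1 as reported, was 0 with a replicate block, 0 with the compared arrays alone, 0 with group variance weights, 0 within the larger inferred batch and 2 with a second quantile normalisation (Fanca and Ung). It ranged from 0 to 8 when 1 replicate was left out. For the other repair genes the count of 2 became 1 with a replicate block, without the sex term, using array weights, in female arrays alone and with the inferred batch as a block, 0 with the compared arrays alone, 0 with group variance weights and 0 within the larger batch, and ranged from 0 to 16 with 1 replicate left out. Between genotypes under control injections the count was 1 with group variance weights and 2 with array weights, where 402 and 785 of all genes were called. With the inferred batch as a block it was 0, and 4 of all genes were called. The genotype and injection-number differences ranged from 0 to 2 with 1 replicate left out. After 1 injection in MerCreMer mice and in wild-type mice, 0 members were called in all 12 and 11 alternatives and with any 1 replicate left out. The count stayed at 1 with a different gene under array weights (Prkdc, with Fanca at an adjusted p of 0.0959) and under both filters on low values (Ung), which remove Fanca from the test. In each alternative that tested it Fanca had a positive change, with an adjusted p of 0.126 under the replicate block. The cause of these differences was not tested.

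Over all genes, 2244 were called after 4 injections in MerCreMer mice. The count was 1251 with the replicate block, 16 with the compared arrays alone, 906 under group variance weights, 1117 under array weights, 945 in female arrays alone, 372 within the larger batch, and 1267 to 3738 with 1 replicate left out. The batch was inferred from the level of a control probe set, chosen after seeing the data. All wild-type arrays lay in 1 inferred batch, and each MerCreMer group held 2 arrays of the other. With the compared arrays alone, 0 p53 target, replication and macrophage genes were called. A low signal limits what can be seen of the 12 dim members.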
